A study of Mus musculus with 6 samples.

Results

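The potassium channel genes described here are the 95 genes, of 23361 in the deposited table, whose symbol starts with Kcn. The symbol alone decided which genes belong, and no expression value was used for that. They were read in isolated taste cells of the circumvallate and foliate papillae of C57BL/6 mice, with 3 libraries at 2 months of age and 3 at 6 months. Each library was a pool of cells from several mice, and the mice of both ages were of the same strain with no treatment or transgene named. The sample labels give 2 and 6 months, although 3 months appears once in place of 2 in the series description. The deposited table gives 1 value per gene and age, the FPKM (a fragment count divided by transcript length and library size) estimated over the 3 libraries. No value of a single library was used here, so there is no SD and no test for any gene. Every difference below is a comparison of 2 pooled values, and whether it is larger than the spread between libraries was not tested.

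Potassium channels let potassium leave or enter the cell through a pore whose narrowest part, the selectivity filter, excludes sodium. They hold the membrane at rest and bring it back after a depolarization. In taste buds, type II cells (sweet, umami and bitter) and type III cells (sour) fire action potentials that potassium currents end, and the glia-like type I cells are thought to clear the potassium that is released. Pore-forming members fall into voltage-gated (alpha) channels, inward rectifiers, two-pore domain (leak) channels and channels opened by calcium or sodium. Auxiliary members form no pore and change how their partners open.

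The classes were set by symbol. In the coding sequences, which the symbol did not use, the stretch that encodes the filter was found in all pore-forming genes and in no auxiliary one. The form searched for this stretch was that of potassium channel filters and was widened beyond the plan, so it is no independent check of the classes. This stretch is shown for some of the members with the highest mean FPKM that contain it, with the first and the second where a gene has 2. Sequences are from GENCODE M21 transcripts (GRCm38), 5′ to 3′ on the coding strand, and the capitals mark the 15 bases that encode the filter, whose GRCm38 position is given with each name (the intron included where the stretch is split).
Kcnk1 (chr8:126025329-126025343, plus strand, exon 2 of 3): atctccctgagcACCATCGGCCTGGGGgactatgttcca
Kcnk7 (chr19:5706381-5706395, plus strand, exon 2 of 3): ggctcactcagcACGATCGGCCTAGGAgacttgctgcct
Kcnk6, first (chr7:29225860-29232168, minus strand, split between exons 1 and 2 of 3): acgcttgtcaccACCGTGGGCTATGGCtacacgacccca
Kcnk6, second (chr7:29225536-29225550, minus strand, exon 2 of 3): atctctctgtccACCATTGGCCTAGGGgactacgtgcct
Kcnk5, first (chr14:20145115-20146507, minus strand, split between exons 2 and 3 of 5): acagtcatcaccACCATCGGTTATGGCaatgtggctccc
Kcnk5, second (chr14:20144648-20144662, minus strand, exon 4 of 5): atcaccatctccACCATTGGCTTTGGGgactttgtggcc
Kcnj5 (chr9:32322559-32322573, minus strand, exon 3 of 4): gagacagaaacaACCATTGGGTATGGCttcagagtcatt
Kcnj1 (chr9:32396705-32396719, plus strand, exon 2 of 2): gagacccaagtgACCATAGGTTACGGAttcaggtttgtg
Kcnj2 (chr11:111072207-111072221, plus strand, exon 2 of 2): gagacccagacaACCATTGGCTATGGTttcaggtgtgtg
Kcnh1 (chr1:192337754-192337768, plus strand, exon 7 of 11): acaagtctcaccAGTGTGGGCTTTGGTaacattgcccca
Kcnv1 (chr15:45109289-45109303, minus strand, exon 3 of 3): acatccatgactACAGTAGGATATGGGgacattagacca

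The stretch was searched in the reading frame of each gene's longest coding sequence, on the coding strand only. It was 5 codons in a row, of which the first began with AC, TC or AG. The second began with GT, AT, CT or TT, the third and the fifth with GG, and the fourth with TA, TT or CT. The last base of each codon was free. A match was found in all 40 voltage-gated pore-forming genes, all 15 inward rectifiers and all 14 two-pore domain genes. It was also found in 8 of the 12 calcium- and sodium-activated genes, the other 4 being the auxiliary Kcnmb subunits. None of the 13 voltage-gated auxiliary genes held it. Of 20141 other genes of the table with a coding sequence, 278 (1.38%) held a match. The narrower form, in which the first codon began with AC, the second with GT or AT and the fourth with TA, was in 48 of the 94 members with a coding sequence and in 4 of the 20141 other genes (0.0199%).

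Among the two-pore domain genes, 12 of 14 held the stretch in 2 places. Kcnk1 and Kcnk7 held it once, which says only that these letters were not found a second time in them. Their match began at codons 225 and 212, closer to the second stretch of Kcnk6 (codon 214) than to its first (codon 106). In all 12 genes with 2 stretches, the first was split between 2 exons and the second lay within 1 exon. The first stretch of Kcnk5, for example, is interrupted by the intron between exons 2 and 3, and its second lies in exon 4. Outside this class, the 3 Kcnd genes were the only members with a split stretch. These are descriptions of the gene sequence and carry no information on expression.

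A gene was described as expressed if its mean over both ages was 1 FPKM or more, and 28 of the 95 members (29.5%) reached it. Of all genes in the table, 12652 (54.2%) did. With the limit at 5 FPKM, 10 members (10.5%) and 39.9% of all genes were counted. At the limit, Kcnab2 and Kcnmb4 lay just inside, with means of 1.08 and 1.04 FPKM, and Kcnh8 and Kcnma1 just outside, with 0.933 and 0.794 FPKM. The table lists 11 members at 0 in both ages, and 56 members had a mean above 0 and under 1 FPKM. A 0 in this table need not mean an absent transcript, since 61 genes are listed at 0 in one age and at 10 FPKM or more in the other. No member is among those, but this count cannot see a gene listed at 0 in both ages. It therefore does not show that the 11 members are absent. Krt13, a marker of suprabasal epithelium, is also listed at 0 in both ages. Sequencing depth is unknown, since FPKM does not carry it.

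**Figure D1:**
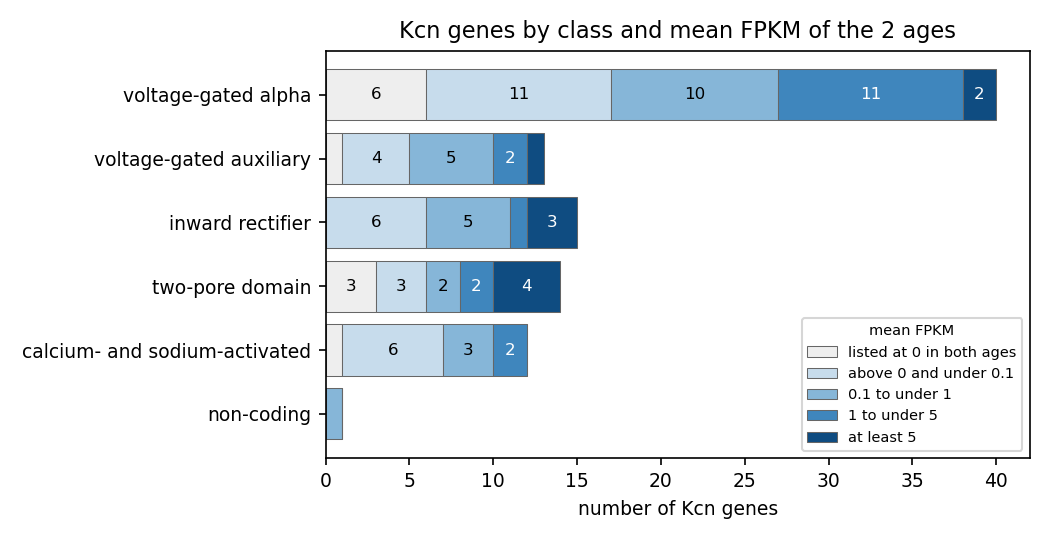
Number of Kcn genes (horizontal axis) in each class, divided by the mean FPKM of both ages into 5 levels, from listed at 0 (lightest) to at least 5 FPKM (darkest). The voltage-gated pore-forming class is the largest, with 40 genes, of which 2 reached 5 FPKM, while 4 of the 14 two-pore domain genes did.

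The cells carried markers of taste buds and also those of other tissues. Entpd2, a type I marker, had 66.1 FPKM at 2 months and 57.7 at 6 months. All 9 type II markers in the table reached a mean of 1 FPKM, with a summed level of 375.6 FPKM at 2 months and 362.5 at 6 months, as did 9 of 10 type III markers, with 76.9 and 86.8 FPKM. Of markers of other tissues, those of skeletal muscle summed to 13.3 and 26.5 FPKM, those of serous and mucous glands to 165.5 and 67.1 FPKM, those of neurons and Schwann cells to 51.6 and 45.3 FPKM, and those of cornified and suprabasal epithelium, leaving out Krt4, to 5696 and 4699 FPKM. Krt4 went from 7334 FPKM to a listed 0 and was left out for that reason. Markers of basal epithelium summed to 4646 FPKM at 2 months and 4619 at 6 months, and those of leukocytes to 309.7 and 267.8 FPKM. The values of the channel genes therefore cannot be assigned to taste cells alone. In a bulk sample, fewer cells of a type and less RNA per cell cannot be told apart.

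Of the 28 expressed potassium channel genes, 26 differed by under 0.3 in log2(FPKM + 1) between the ages, against 91.7% of all expressed genes. Kcne3 was the furthest apart. None of the 28 expressed members was 1.5-fold or more higher at 6 months, where 1.05% of all expressed genes were, and none was 1.5-fold or more lower, where 1.72% were. Both shares were read on the scale of log2(FPKM + 1), on which differences of weakly expressed genes are understated. With shares this small, a list of 28 genes without a call is near the background, and the absence of calls is not a result about these genes. At the lower fold limit tried (a smaller fold than 1.5), 1 member, Kcne3, was lower and none was higher, where 4.23% and 2.95% of all expressed genes were. At 2-fold no member was called in either direction, against 0.561% higher and 1.04% lower. The median difference of the 28 members was -0.00133 on that scale, with quartiles of -0.18 and 0.10, and that of all expressed genes was -0.01, with quartiles of -0.10 and 0.08. Of the 28, 14 had a higher value at 6 months and 14 a lower value, and with the 6 month values scaled to the upper quartile of 2 months 15 were higher and 13 lower, since Kcnh3 changed sign. A higher value was found for 46.3% and a lower value for 53.7% of all expressed genes. The difference was under 0.1 in size for 12 of the 28 members and under 0.2 for 20, against 53.5% and 81.9% of all expressed genes. The median size of the difference was 0.119 over the members and 0.092 over all expressed genes. The members were therefore not closer between the ages than expressed genes at large.

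The highest 10 members were the same 10 genes at both ages, and together they held 73.5% of the summed FPKM of all members at 2 months and 70.1% at 6 months. The sum went from 197.9 to 178.4 FPKM, a difference of 19.5 FPKM, of which 13.8 FPKM was the difference of Kcne3 alone. The 28 expressed members made up 94.6% and 93.9% of the sum.

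**Figure D2:**
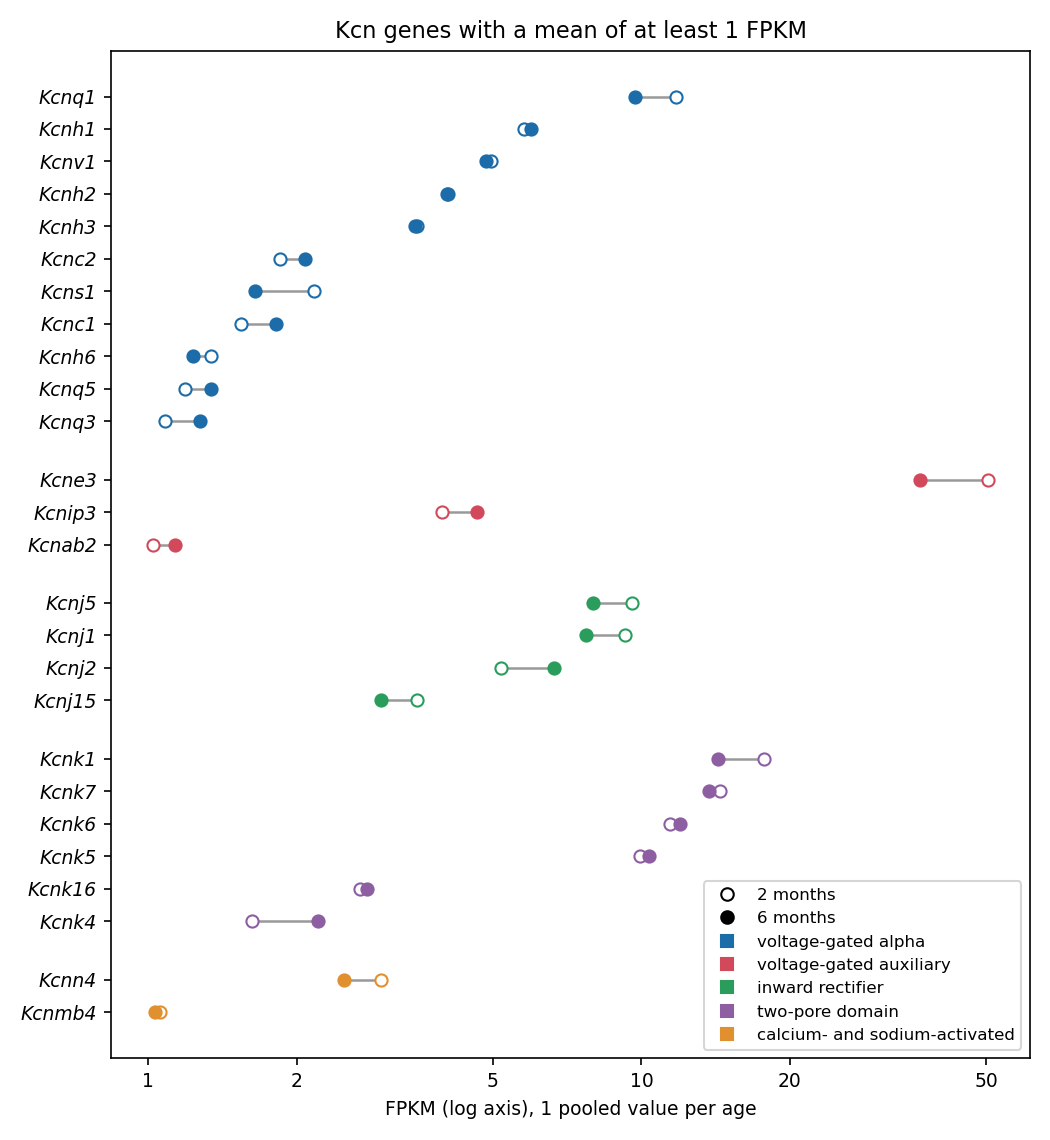
FPKM (horizontal log axis) of 26 of the 28 expressed Kcn genes, grouped by class and ordered by mean, with an open point for the pooled value at 2 months, a filled point for 6 months and a line joining them. No error bars are drawn because there is 1 value per age. Kcne3 is highest at both ages, at 50.4 and 36.7 FPKM, and most pairs of points lie close together.

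Two-pore domain channels give a leak current that sets the resting potential, and 4 of them were among the 6 highest members. Kcnk1 had 17.7 FPKM at 2 months and 14.3 at 6 months, 19.5% lower. Kcnk6, its close relative, had 11.4 and 11.96 FPKM. Kcnk7, a further relative that is not known to carry current on its own, had 14.4 and 13.7 FPKM. Kcnk5, a channel opened by alkaline pH, had 9.96 and 10.3 FPKM. The values of Kcnk5, Kcnk6 and Kcnk7 thus differed by under 5% between the ages, and that of Kcnk1 by more. Kcnk16 had 2.68 and 2.77 FPKM. Kcnk4, which encodes the mechanically gated channel TRAAK, had 1.63 and 2.21 FPKM, 35.7% higher at 6 months. Of the exonic bases of Kcnk4, 13.1% are shared with Catsperz on the same strand, and of those of Kcnk1, 8.01% with Gm45875 on the opposite strand, both in the GENCODE annotation. How the reads of these bases were counted is not given in the sources used here. The other 8 genes of the class were under 1 FPKM. Kcnk2 had 0.215 and 0.125 FPKM and the acid-sensitive Kcnk3 0.0588 and 0.0554 FPKM. Kcnk9, Kcnk15 and Kcnk18 are listed at 0 in both ages.

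Among the voltage-gated pore-forming genes, 13 of 40 were expressed, and the class had a median log2 difference of 0.01. Kcnq1, whose channel recycles potassium in several epithelia, was the highest at 11.7 FPKM at 2 months and 9.72 at 6 months, 17.1% lower. Its overlapping antisense RNA Kcnq1ot1, the imprinted non-coding RNA of the locus, had 0.736 and 0.775 FPKM. The exons of the 2 genes share 121 bases, and since strand-specific counting is not stated in the sources used here, reads from these bases cannot be told apart. Kcnq5 and Kcnq3 form M-type channels. Their FPKM values were 1.19 and 1.08 at 2 months, against 1.34 and 1.27 at 6 months.

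The ether-a-go-go family (Kcnh) had 4 expressed members that were close to level between the ages. Kcnh1 had 5.79 FPKM at 2 months and 5.99 at 6 months. Kcnh2, the channel of the rapid cardiac repolarizing current, had 4.03 and 4.05 FPKM. Kcnh3 had 3.50 and 3.47 FPKM, and Kcnh6 had 1.34 and 1.23 FPKM. The largest log2 difference of these 4 genes was -0.07, that of Kcnh6.

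Genes of fast-deactivating channels (Kcnc) were present at low level, with 1.54 and 1.82 FPKM for Kcnc1 and 1.85 and 2.08 FPKM for Kcnc2. Kcnc4 had 0.764 and 0.645 FPKM. Shaker-type genes (Kcna) were all under 1 FPKM, with a summed level over the 8 genes of 0.300 FPKM at 2 months and 0.438 at 6 months. Among them, Kcna5, studied in taste cells as a channel blocked by fatty acids, is listed at 0 in both ages, and Kcna2 had 0.0341 and 0.0190 FPKM. The 3 Kcnd genes of transient currents summed to 0.207 and 0.283 FPKM.

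Kcnv1 and Kcns1 are silent subunits, which carry a filter but conduct only together with a pore-forming partner. The level of Kcnv1 was 4.96 FPKM at 2 months and 4.84 at 6 months, and Kcns1 had 2.17 and 1.64 FPKM, 24.2% lower. Kcng genes, also silent, were all under 0.1 FPKM, with a sum of 0.0211 and 0.0776 FPKM. The sets of partner genes compared below were picked with their values already known.

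Auxiliary subunits had the highest single member. Kcne3, a small membrane protein that keeps Kcnq1 channels open, had 50.4 FPKM at 2 months and 36.7 at 6 months, 27.3% lower. Its log2 difference of -0.45 was the largest in size of all 28 expressed members on this scale, and 2.50% of all expressed genes were at least as much lower. Kcne3 held 25.5% of the summed FPKM of the members at 2 months and 20.5% at 6 months. It lies on the plus strand of chromosome 7 at 100176502 to 100184869 in GRCm38 (GENCODE M21). The ratio of Kcne3 to Kcnq1 was 4.30 at 2 months and 3.77 at 6 months, with both genes lower at 6 months and Kcne3 by more. The other genes of its family were far lower, with Kcne1 at 0.0167 and 0.00961 FPKM, Kcne2 at 0.0218 and 0.0639 FPKM and Kcne4 listed at 0 in both ages.

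Kcnip3, a calcium-binding protein that modulates Kcnd channels and also acts as the transcriptional repressor DREAM, had 3.94 FPKM at 2 months and 4.65 at 6 months. This was 19.0 and 16.5 times the sum of the 3 Kcnd genes, which was under 1 FPKM at both ages. Kcnab2, a cytoplasmic beta subunit of Kcna channels, had 1.02 and 1.13 FPKM. Kcnip2 had 0.605 and 0.516 FPKM, and Kcnip4 had 0.583 and 0.396 FPKM.

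Inward rectifiers pass potassium more easily into the cell than out of it and hold the resting potential near the potassium equilibrium. Of 15 genes, 4 were expressed, and the other 11 had a mean under 1 FPKM. Kcnj1 encodes ROMK, a channel known at the tips of type I taste cells, and had 9.25 FPKM at 2 months and 7.71 at 6 months, 16.6% lower. Kcnj5, a G protein-gated channel subunit, had 9.55 and 7.98 FPKM, 16.4% lower. Kcnj15 had 3.50 and 2.96 FPKM. Kcnj2, a strong rectifier known in the acid response of sour-sensing cells, had 5.20 and 6.64 FPKM, 27.8% higher at 6 months, where the other 3 were lower.

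The log2 difference of Kcnj2, 0.30, was the largest positive difference among the expressed members, and Kcnk4 followed at 0.29. With a pseudocount of 0.1 in place of 1 their order turned, at 0.35 for Kcnj2 and 0.42 for Kcnk4. At a pseudocount of 1, 3.26% of all expressed genes were at least as much higher as Kcnj2. Beside Kcnj2, 6 of the 9 expressed type III markers had a higher value at 6 months (7 after the upper quartile scaling). The share of all expressed genes with a higher value was 46.3%. The median log2 difference of the 9 markers was 0.16, and none reached 1.5-fold. The 6 expressed skeletal muscle markers were all higher at 6 months too, with a median of 0.78. At least 1.5-fold higher were 5 of these, against 1.05% of all expressed genes. Beside Kcnj1, the type I marker Entpd2 had a log2 difference of -0.19, against -0.23 for Kcnj1, while Slc1a3, the other type I marker, lay under 1 FPKM and in the opposite direction, with 0.710 and 0.988 FPKM. All 6 markers shared by taste bud cells in general (among them Krt8, Krt18 and Krt20) were lower at 6 months. Of all expressed genes 53.7% were lower, and the median of the 6 taste bud markers was -0.33. The part of these markers in the values of the channels was not tested.

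Kcnj5 and Kcnj1 are neighbors on chromosome 9 of GRCm38, on opposite strands, with 28.1 kb between them. Kcnj5 spans 32314707 to 32344350 and Kcnj1 spans 32372493 to 32399197. Their FPKM values and their log2 differences, -0.23 each, were alike. Of the other pairs of members within 200 kb of each other that include an expressed gene, none had levels as close. Kcnj16 lies 38.2 kb from Kcnj2 on chromosome 11 and on the same strand, and had 0.177 and 0.186 FPKM. Kcnk16 lies 79.6 kb from Kcnk5 on chromosome 14, on the same strand, and was lower than it at both ages.

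Subunits with which Kcnj5 is known to pair were low. Kcnj3, Kcnj6 and Kcnj9 summed to 0.0905 FPKM at 2 months and 0.0865 at 6 months, so Kcnj5 was 106.0 and 92.3 times their sum. Each of the summed genes was under 0.1 FPKM at both ages. The ratios therefore rest on very low values, and their difference between the ages cannot be read. The metabolically gated Kcnj11, closed by ATP, had 0.676 and 0.652 FPKM, and Abcc8, the sulfonylurea receptor that assembles with it, had 0.366 and 0.394 FPKM. Kcnj8, its counterpart in smooth muscle and pericytes, had 0.0321 and 0.0215 FPKM. Kcnj14 had 0.0504 and 0.104 FPKM.

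**Figure D3:**
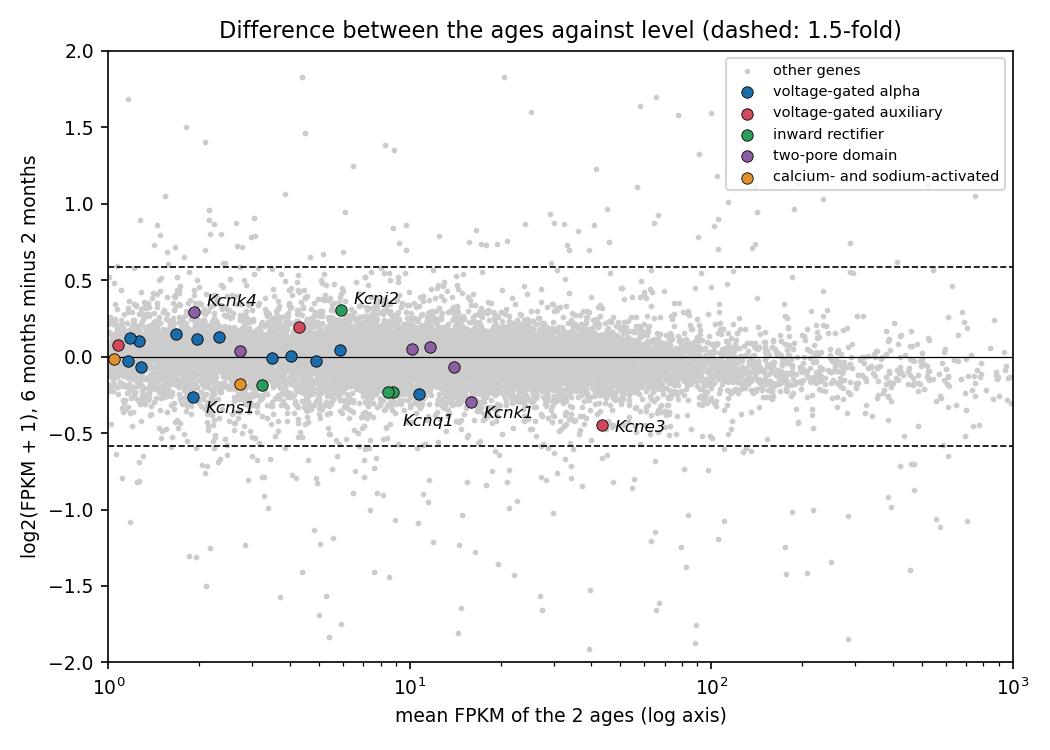
Difference of log2(FPKM + 1), 6 months minus 2 months (vertical axis), against the mean FPKM of both ages (horizontal log axis) for the 28 expressed Kcn genes (colored by class) and for other expressed genes (gray). Dashed lines mark 1.5-fold, and 231 other genes lie outside the drawn range. All Kcn genes lie between the dashed lines, from -0.45 for Kcne3 to 0.30 for Kcnj2.

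Calcium-activated channels were few. Kcnn4, the intermediate-conductance channel of many secretory cells, had 2.97 FPKM at 2 months and 2.50 at 6 months. Kcnmb4, an auxiliary subunit of the large-conductance channel, had 1.06 and 1.03 FPKM, and 20.8% of its exonic bases are shared with the antisense gene Kcnmb4os2. Kcnma1, the pore of that large-conductance channel, had 0.921 and 0.667 FPKM. Lrrc26, an auxiliary subunit that lets the Kcnma1 channel open without a rise in calcium, had 62.8 FPKM at 2 months and 49.8 at 6 months, which was 68.2 and 74.6 times Kcnma1. Lrrc26 and Kcnn4 are also found in serous and mucous glands. The 6 expressed gland markers were all lower at 6 months, as were 53.7% of all expressed genes. The median log2 difference of the gland markers was -0.51, and their part in the values of Lrrc26 and Kcnn4 was not tested. The sodium-activated genes Kcnt1 and Kcnt2 are listed at 0 in at least 1 age.

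**Figure D4:**
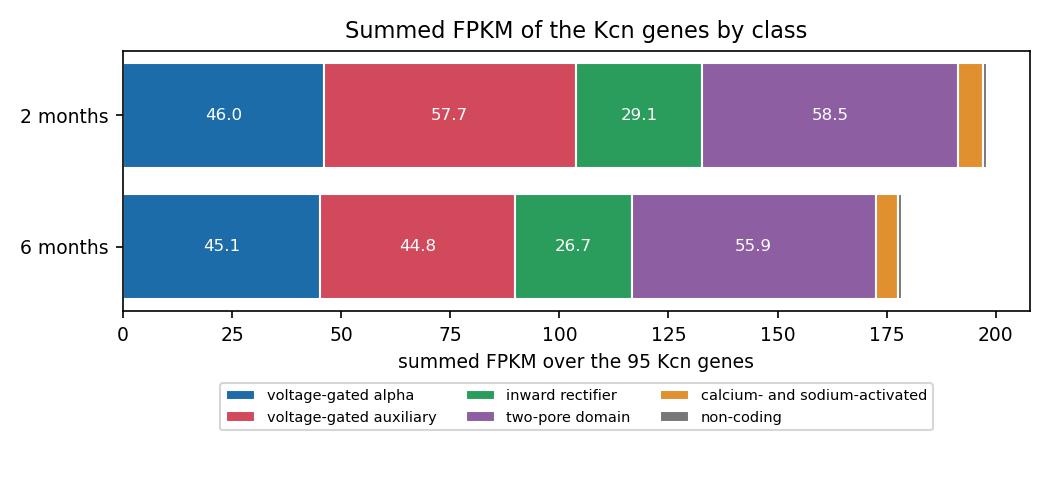
Summed FPKM (horizontal axis, starting at 0) of the 95 Kcn genes at 2 and 6 months, stacked by class. The two-pore domain and voltage-gated auxiliary segments are the widest at 2 months, at 58.5 and 57.7 FPKM, and the auxiliary segment is 44.8 FPKM at 6 months.

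By class, two-pore domain genes held 29.6% of the summed FPKM of the members at 2 months and 31.3% at 6 months. Auxiliary genes of voltage-gated channels held 29.1% and 25.1%, and the voltage-gated pore-forming genes 23.3% and 25.3%. Inward rectifiers held 14.7% and 14.97%, and the calcium- and sodium-activated genes 3.00% and 2.90%. The auxiliary share rested on Kcne3, without which it was 4.93% and 5.73% of the remaining sum. The median log2 difference was 0.08 in the auxiliary class, although its sum was lower at 6 months, because 2 of its 3 expressed genes were higher and Kcne3 was not. In the other classes the median was 0.01 over 13 expressed voltage-gated pore-forming genes and -0.21 over 4 inward rectifiers. It was 0.04 over 6 two-pore domain genes. In the calcium- and sodium-activated class it was -0.10 over 2 genes, Kcnn4 and the auxiliary Kcnmb4, with no sodium-activated gene expressed.

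Genes outside the Kcn symbols that move or control potassium were taken from lists drawn up with earlier results of these data known. Of 9 partner subunits, 2 were expressed, Lrrc26 and Amigo1, and none reached 1.5-fold. Of 24 pump and cotransporter genes, 12 were expressed, against 54.2% of all genes. At 6 months 1 of the 12 was 1.5-fold or more lower and none was higher by that fold. Among all expressed genes, 1.72% were lower and 1.05% higher by that fold. The median log2 difference of these 12 was -0.10. The highest of them was Fxyd3, a small regulator of the sodium pump, with 817.7 and 682.8 FPKM. Atp1b1, a beta subunit of the sodium pump, had 37.8 and 27.3 FPKM. Fxyd2, the gamma subunit of the sodium pump in kidney, was the gene past 1.5-fold, with 4.41 and 2.14 FPKM. Of the 13 expressed genes of channel trafficking and turnover, 10 had a higher value at 6 months, against 46.3% of all expressed genes. The median of the 13 was 0.08, and none reached 1.5-fold. Nedd4, a ubiquitin ligase, had 89.8 and 93.1 FPKM. Wnk4, a kinase that controls ROMK, had 29.0 and 36.8 FPKM, and Sgk1, a kinase in the same pathway, had 65.8 and 68.5 FPKM.

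Other ion channel genes give a scale for these counts. Of 13 sodium channel genes (Scn), 2 reached a mean of 1 FPKM (15.4%), as did 3 of 26 voltage-gated calcium channel genes (11.5%) and 9 of 22 Trp channel genes (40.9%). The share was 29.5% among the potassium channel genes and 0.448% among 1117 olfactory receptor genes, which taste cells should largely lack. These shares are descriptions and were not tested against each other.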

How the data were processed

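RNA was sequenced from 3 libraries of pooled taste cells at 2 months and 3 at 6 months. Per the submitters' processing notes and the study's methods, alignment was to GRCm38/mm10 (TopHat2 2.0.7), RefSeq genes were quantified by Cufflinks 2.1.1, and Cuffdiff compared the ages. The deposited FPKM values are the authors' pooled values, 1 per gene and age, and the columns were assigned to the ages by the letters that the table and the sample titles share. The table also holds p-values of the authors' comparison, which were not used. Library normalization and depth are not given in the sources used here, and FPKM carries no counting error.

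Differences are log2(FPKM + 1) at 6 months minus 2 months, for genes whose mean was 1 FPKM or more, and a fold of 1.5 was the limit for a call. With 1 value per age no test was made. The code that makes the fold calls was tested on simulated data. Membership follows from the symbol alone, but the choice to describe these genes, and the classes, gene lists and limits, were made with earlier results of these data known. Genes were named if they were among the 15 highest members, past or nearest to 1.5-fold, known from work on taste buds, highest of a class, or Kcnq1ot1. In the other lists, the highest genes and those past 1.5-fold were to be named. Further genes were picked with their values known. Some genes and sequences are not reported here.

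Positions, exons and coding sequences are from GENCODE M21 (GRCm38, the build of the reads), to which 95 of 95 symbols matched. Of these, 94 had a coding sequence. The search for the filter was planned on proteins beginning with threonine. It was made on coding DNA, since no protein table was used here, and the first codons TC and AG were added to the plan. Alternatives were a pseudocount of 0.1, limits of 0.1 and 5 FPKM or none, 1 FPKM or more in both ages, folds of 1.25 and 2, and scaling of the 6 month values to the upper quartile of 2 months. Python 3.11.15, numpy 2.4.6, pandas 2.3.3 and matplotlib 3.10.9 were used.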

Additional observations from a re-analysis of the deposited data

How the results depend on the processing

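No paired analysis was possible because only 1 pooled value per age was used and none per library, and for the same reason no replicate could be left out. Scaling to the upper quartile of 2 months moved no value by 0.1 or more on the log2 scale. The scaling factor was 1.015, too close to 1 to move any value by that much, so this alternative could not test the normalization. The number of members counted as expressed was 28, with 54 at a limit of 0.1 FPKM and 10 at a limit of 5 FPKM, since each limit admits other genes. None was 1.5-fold lower, and 1, Kcne3, was past the smaller fold limit, where 4.23% of all expressed genes were. With the limit at 5 FPKM the median log2 difference was -0.15 over the members, -0.10 over the voltage-gated pore-forming genes and -0.45 over the auxiliary genes, where Kcne3 alone was left, and no calcium- or sodium-activated gene was left to give a value. With no filter, the median of the inward rectifiers was -0.015 instead of -0.21, since 11 weakly expressed genes enter. Without Kcne3, the auxiliary share of the summed FPKM was 4.93% at 2 months and 5.73% at 6 months. A pseudocount of 0.1 moved the median of the skeletal muscle markers from 0.78 to 1.03, of the neuron and Schwann cell markers from -0.34 to -0.52 and of the gland markers from -0.51 to -0.62, and it moved 7 of the members named by rule, all under 1 FPKM, by 0.1 or more with the same sign. Of the expressed members named beyond the rule, it moved Kcnk4 from 0.29 to 0.42 and Kcns1 from -0.26 to -0.38. With 1 value per age, small differences between the ages cannot be separated from the spread between libraries.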

Other observations

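The 67 members with a mean under 1 FPKM include most of the channels known from nerve and striated muscle. The largest difference between the ages in any of them was 0.253 FPKM, and the highest single value was 0.984 FPKM, that of Kcnh8 at 6 months. Kcna7, a voltage-gated channel of skeletal muscle, had 0.0908 FPKM at 2 months and 0.143 at 6 months. Kcnj12, an inward rectifier of striated muscle, had 0.198 and 0.0703 FPKM, in the opposite direction. Beside these, all 6 expressed skeletal muscle markers, of 12 listed, had a higher value at 6 months, against 46.3% of all expressed genes. The median log2 difference of the 6 markers was 0.78. At least 1.5-fold higher were 5 of them, against 1.05% of all expressed genes. Kcnu1, a channel known from sperm, had 0.261 and 0.252 FPKM. Kcnj10, the glial inward rectifier, had 0.151 and 0.143 FPKM. Kcnrg, which encodes a soluble regulator of Kcna channels, had 0.621 and 0.808 FPKM. These genes were picked with their values known.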
